A study of Mus musculus with 12 samples.

Results

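The genes studied here encode the junctions of the intercalated disc, the contact by which cardiomyocytes (CMs) are joined end to end. The 10 members were chosen by name and by role: the connexin genes *Gja1*, *Gja5* and *Gjc1* of the gap junction, *Cdh2* and *Ctnna3* of the adherens junction, *Dsp*, *Dsg2* and *Pkp2* of the desmosome, and *Jup* and *Tjp1*, whose products are shared plaque and scaffold proteins. They are 10 of the 21938 protein-coding genes of the annotation (GENCODE M21), and 10 of the 14443 that had an H3K27ac region in either genotype. A region belonged to a gene if it overlapped the gene body extended by 5 kb on each side, here called the gene window. By this rule, 77 of the 53754 regions of control CMs and 72 of the 45521 regions of RIP140-null (KO) CMs belonged to the members.

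Gap junctions are clusters of connexin channels that pass current from one CM to the next, while adherens junctions and desmosomes hold the cells together by anchoring actin and intermediate filaments at the membrane. In the adult heart these structures are mixed within the disc, and inherited defects in desmosomal genes are a known cause of arrhythmogenic cardiomyopathy. H3K27ac, the acetylated form of histone H3 measured here, marks active promoters and enhancers, so its regions show which parts of these genes carry an active chromatin mark, not how much RNA or protein is made.

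The study asked what role the corepressor RIP140, encoded by *Nrip1*, has in cardiac fuel metabolism and heart failure. Its H3K27ac maps were made to look for transcription factors that are targets of RIP140 in CMs. H3K27ac was mapped by CUT&RUN, in which an antibody directs a nuclease to chromatin and the released DNA is sequenced, with 3 H3K27ac and 3 IgG replicates per genotype. Control CMs were *Nrip1* f/f Cre- and KO CMs (csNrip1-/-) were *Nrip1* f/f Cre+, so that both carried the floxed alleles and differed in a Cre driven by the cardiac *Nkx2.5* promoter. Male mice aged 10 to 12 weeks were used, the CM fraction was enriched after Langendorff perfusion, and 200000 cells entered each experiment. The values are region positions: for each genotype the authors merged the replicates into 1 list of regions found in at least 2 of 3 replicates. There is thus 1 list per genotype and no value per replicate, so no difference given below has a replicate error or a test, and the depth behind each region is unknown.

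The genotype was checked first. Control regions covered 2904 bp of the last exon of *Nrip1* (chr16:76287400-76295015, GRCm38, minus strand), and KO regions covered 0 bp of it. All 8 CM marker genes examined had a region and a covered transcript start in both lists, and their windows held 124412 bp of regions in control and 150898 bp in KO CMs, the most at *Actn2* (33783 and 53473 bp), with a greater length in KO CMs at 5 of the 8 and a smaller one at 3. Markers of endothelium were also present, with regions at 6 of 6 genes in both lists, so both lists also held the mark at genes of another cell type of the heart.

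RefSeq promoter sequences (GRCm38.p6, 250 bases before to 50 after a start) were matched for 6 of the 10 members: *Gja1*, *Gja5*, *Ctnna3*, *Dsp*, *Jup* and *Tjp1*. *Gjc1*, *Cdh2*, *Dsg2* and *Pkp2* had no entry. The 3 shown are those on which the results turn: the *Gja1* promoter (chr10:56377050-56377349, plus strand), which lay inside the region that was wider in KO CMs, the *Gja5* promoter (chr3:97032152-97032451, plus strand), which was covered in control CMs alone, and the *Tjp1* promoter (chr7:65371195-65371494, minus strand), which lay in the widest member region of either list. Capitals mark a match to the AP-1 motif TGANTCA.
Gja1 promoter: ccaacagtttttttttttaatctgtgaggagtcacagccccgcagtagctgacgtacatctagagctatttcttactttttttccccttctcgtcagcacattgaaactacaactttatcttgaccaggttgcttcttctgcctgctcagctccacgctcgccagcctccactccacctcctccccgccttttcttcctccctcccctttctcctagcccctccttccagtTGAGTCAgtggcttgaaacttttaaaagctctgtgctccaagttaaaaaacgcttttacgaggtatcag
Gja5 promoter: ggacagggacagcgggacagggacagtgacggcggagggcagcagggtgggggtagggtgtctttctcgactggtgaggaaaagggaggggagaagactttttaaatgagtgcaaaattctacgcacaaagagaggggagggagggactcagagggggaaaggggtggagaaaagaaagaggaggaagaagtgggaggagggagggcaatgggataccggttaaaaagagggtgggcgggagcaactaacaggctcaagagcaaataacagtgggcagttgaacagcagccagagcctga
Tjp1 promoter: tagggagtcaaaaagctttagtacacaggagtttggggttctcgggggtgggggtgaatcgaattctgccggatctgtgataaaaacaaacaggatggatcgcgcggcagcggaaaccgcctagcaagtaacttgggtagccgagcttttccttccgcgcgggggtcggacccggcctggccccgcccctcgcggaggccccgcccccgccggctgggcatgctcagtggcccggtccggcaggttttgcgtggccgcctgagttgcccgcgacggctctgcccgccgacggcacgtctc

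Motifs were searched on both strands in the RefSeq promoters: TNAAGTG for NKX2-5, AGATAAG for GATA factors, TCAAGGTCA for the estrogen-related receptors (ERR), AGGTGTGA for TBX5, TGANTCA for AP-1, and MEF2. Among the promoters of the 6 matched members there was 1 match, the AP-1 motif of *Gja1*, which began 19 bases upstream of the RefSeq start. Of all 32851 promoters, 7.81% held the AP-1 motif, 11.5% that of NKX2-5, 3.04% that of GATA, 1.28% that of TBX5, 0.557% that of MEF2 and 0.423% that of ERR. The printed promoters differed in base composition. GC content was 47.7% at *Gja1*, 55.7% at *Gja5* and 65.3% at *Tjp1*, against a median of 52.7% over all promoters, and the ratio of observed to expected CpG was 0.54, 0.42 and 0.97, against 0.38. The *Tjp1* promoter was thus the richest in CpG of the 3, with 31 CpG against 8 at *Gja1* and 7 at *Gja5*.

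Across the members, H3K27ac covered nearly the same length in both genotypes. Regions covered 325127 bp of the 10 windows in control and 345855 bp in KO CMs, a log2 ratio (KO over control) of 0.09. When each region was assigned to the nearest transcription start instead, the sums were 522321 and 497669 bp and the ratio turned to -0.07. Regions beyond the *Gja1* window, described with that gene, made up 181065 and 129930 bp of these. The covered length was greater in KO CMs at 7 members and smaller at 3 (*Gja5*, *Dsg2* and *Jup*), with a median log2 ratio of 0.04 and a range from -0.52 to 0.36. Over the 12989 genes with a region in both lists the median was 0.08, with quartiles of -0.20 and 0.39. None of the members passed 1.5-fold: 0 of 10 were longer in KO CMs, beside 19.8% of all genes, and 0 of 10 were shorter, beside 12.6%, although *Dsg2* passed it under 2 other settings. These shares are over the 14443 genes with a region in either list. Genes with a region in 1 list alone count there as past 1.5-fold, whereas each member had regions in both. The direction depended on the setting at *Gja1*, *Ctnna3* and *Jup*, whose ranges under other rules are given with each gene. At *Jup* it was lost only without the flanks, where the log2 ratio was 0.00. The sign was kept in 6 of 6 alternative settings at the other 7.

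**Figure D1:**
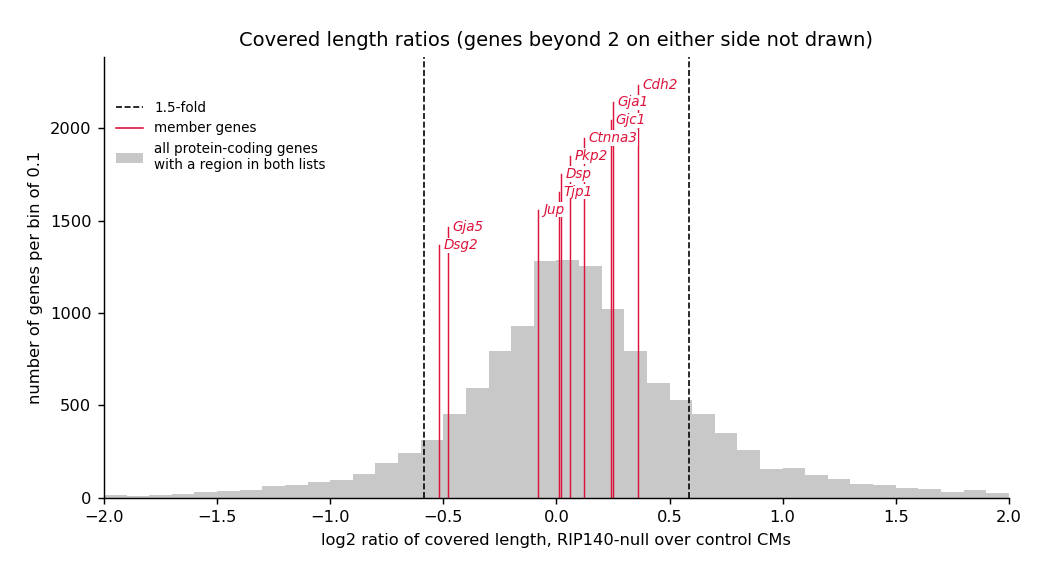
Histogram of the log2 ratio of covered length, KO over control, for protein-coding genes with a region in both lists (grey; y axis, number of genes per bin of 0.1), with the members as red lines whose heights only separate the labels and 1.5-fold as dashed lines. The members lie between -0.52 (*Dsg2*) and 0.36 (*Cdh2*), inside the dashed lines. The sign at *Gja1* and *Ctnna3* depended on how regions were assigned, and *Jup* was at 0.00 without the flanks.

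By junction type, each with only 2 or 3 members, the log2 ratios of the summed lengths ran from -0.06 to 0.28. The adherens junction genes held 100625 bp in control and 122331 bp in KO CMs (log2 0.28), and the gap junction genes held 46606 and 49323 bp (log2 0.08). The desmosome genes held 79327 and 75991 bp (log2 -0.06), and the plaque and scaffold genes 98569 and 98210 bp (log2 -0.01). As the plot of covered length by gene shows, *Cdh2* accounted for most of the adherens junction difference and *Dsg2* was the desmosome gene with the smaller KO value. In the gap junction group, greater lengths at *Gja1* and *Gjc1* stood beside a smaller one at *Gja5*, with *Gja1* in the opposite direction once distal regions were counted.

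**Figure D2:**
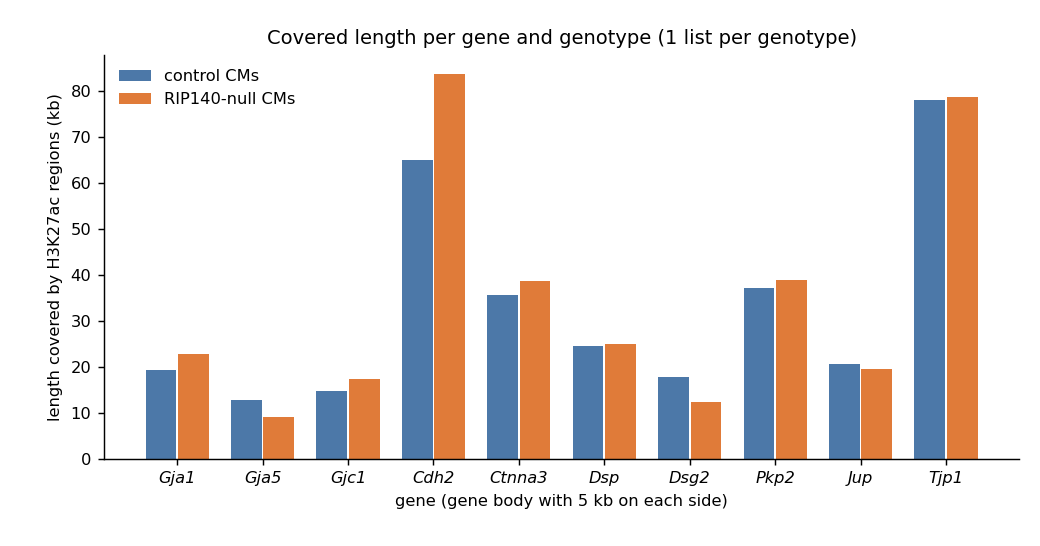
Length covered by H3K27ac regions (kb, y axis) in the window of each member gene (x axis) in control (blue) and KO (orange) CMs; each bar is the value from 1 merged list, so there are no error bars. *Cdh2* shows the greatest difference, 64991 against 83683 bp, and *Tjp1* almost none, 77893 against 78695 bp.

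Member genes carried broad domains in both genotypes. The median of the widest region per member was 14449 bp in control and 14742 bp in KO CMs, against 2724 and 3067 bp over all genes. A region of at least 10 kb, a width chosen after the values were seen, was present at 8 of 10 members in control CMs, beside 8.07% of all genes, and at 7 of 10 in KO CMs, beside 9.94%. The members were also longer, with a median gene length of 53340 bp against 24539 bp, and the part of gene length in these counts was not tested. The covered share of the window, which divides by length but does not match genes of like length, had medians of 37.5% and 39.9% against 11.4% and 12.4%. The pattern did not hold at each member. *Gja5* and *Dsg2* had no region of 10 kb in either list, and *Ctnna3* had none in KO CMs. *Gja5* was the only member whose widest regions, 2194 and 2642 bp, were narrower than the medians of all genes, and the covered shares of *Gja5* (6.97% and 5.01%) and *Ctnna3* (2.25% and 2.44%) were below the medians. Broad coverage was not particular to the members, as genes named after their values were seen show. Among CM markers, the covered share was 85.7% and 84.5% at *Nkx2-5*, but 5.63% and 5.05% at *Ttn*. Among other adherens junction genes, the widest regions were 27765 and 27149 bp at *Ctnnd1*, but 2929 and 4340 bp at *Vezt*.

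**Figure D3:**
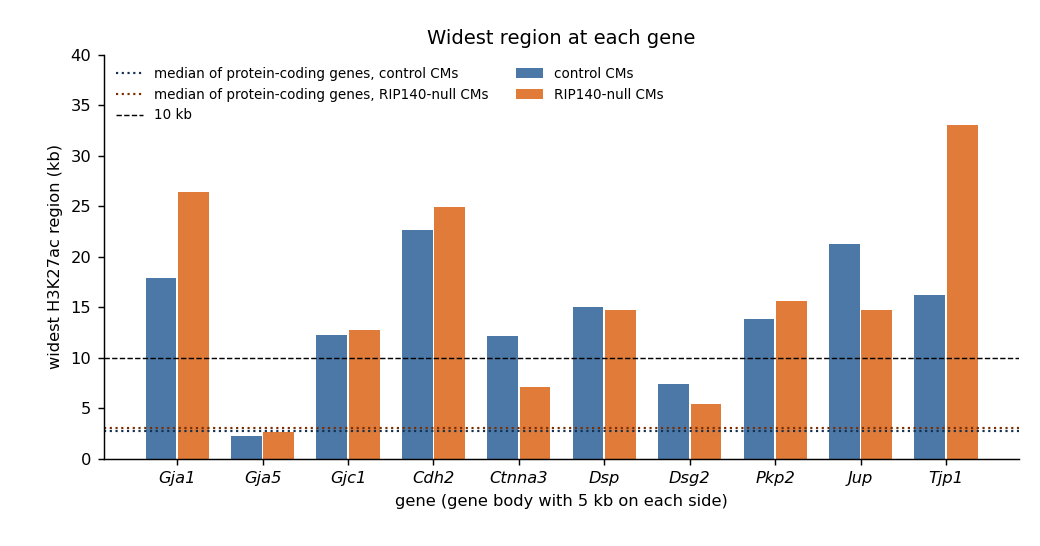
Width of the widest H3K27ac region (kb, y axis) at each member gene (x axis) in control (blue) and KO (orange) CMs, with the medians over protein-coding genes as dotted lines and 10 kb as a dashed line. The members stand above the medians except *Gja5*, and the widest region was that of *Tjp1* in KO CMs (33073 bp).

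Regions at the members were wider in KO CMs, as in the whole list. The median region width at the members was 1600 bp in control and 2535 bp in KO CMs, and over the whole lists it was 1846 and 2291 bp. Among the members, 6 had fewer regions in KO CMs, 3 had more and 1 had the same number, beside 33.8%, 21.5% and 44.7% of all genes, and the whole KO list is itself the shorter. The members also held more regions, with medians of 7 in control and 5 in KO CMs against 2 and 2 over all genes. The part of region number in these shares was not tested. With equal numbers of the widest regions kept, the members held 69 control and 72 KO regions, so the order of 77 and 72 turned. Of the KO regions, 11 of 72 overlapped 2 or more control regions, beside 10.4% of KO regions in all gene windows, and 8 of 77 control regions overlapped 2 or more KO regions, beside 5.57%. Joining and splitting of neighboring regions were thus both present at these genes.

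Regions found in 1 genotype alone were mostly small. A region was called control-only or KO-only if it did not overlap the other list by even 1 bp. Of the control regions, 21 of 77 (27.3%, Wilson 95% interval 18.6 to 38.1%) were control-only, beside 27% of control regions in all gene windows, and of the KO regions, 17 of 72 (23.6%, 15.3 to 34.6%) were KO-only, beside 20.7%. The shares at the members were near those over all genes. Median widths were 1129 bp for the control-only and 1236 bp for the KO-only regions. A control-only region was present at 7 of 10 members, beside 39.2% of all genes, and a KO-only region at 5 of 10, beside 35.2%, among genes that were longer than most. *Gja1*, *Dsp* and *Jup* had neither kind, *Gja5* and *Dsg2* had control-only regions alone, and the other 5 had both. The number in each region's name was read here, from its form and the file header, as the number of replicate peaks merged into it. By this reading, 19 of the 21 control-only and 13 of the 17 KO-only regions had the minimum of 2, beside 94.3% and 87.8% over the whole lists. Of regions with 3 or more, an alternative chosen after seeing the data, 2 were control-only and 4 KO-only, so the order of the genotypes turned. It also turned, to 16 and 18, when equal numbers of the widest regions were kept.

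**Figure D4:**
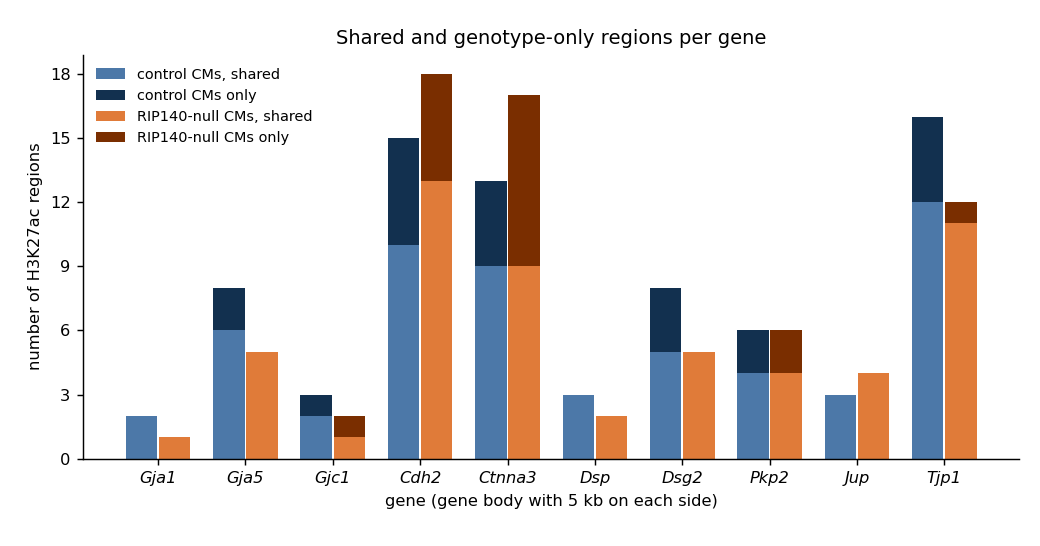
Number of H3K27ac regions (y axis) at each member gene (x axis) in control and KO CMs, divided into regions that overlap the other list and regions found in 1 genotype alone. *Gja5* and *Dsg2* each had 8 control and 5 KO regions with no KO-only region, and *Ctnna3* had 8 KO-only and 4 control-only regions.

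Most transcript starts carried the mark in both genotypes. The gene start, taken from 1000 bp upstream to 100 bp downstream, was covered at 9 of 10 members in control CMs, beside 68.9% of all genes, and at 9 of 10 in KO CMs, beside 73.1%. *Tjp1* was the exception in both lists. The members have 25 protein-coding transcript start positions, of which 20 were covered in both genotypes, 3 in neither, 1 in control CMs alone (*Gja5*) and 1 in KO CMs alone (*Cdh2*). Both are internal promoters, which are described with their genes. By the start base alone, a further start, 521 bp into *Gjc1*, was covered in KO CMs but not in control CMs, where it lay between 2 regions.

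**Figure D5:**
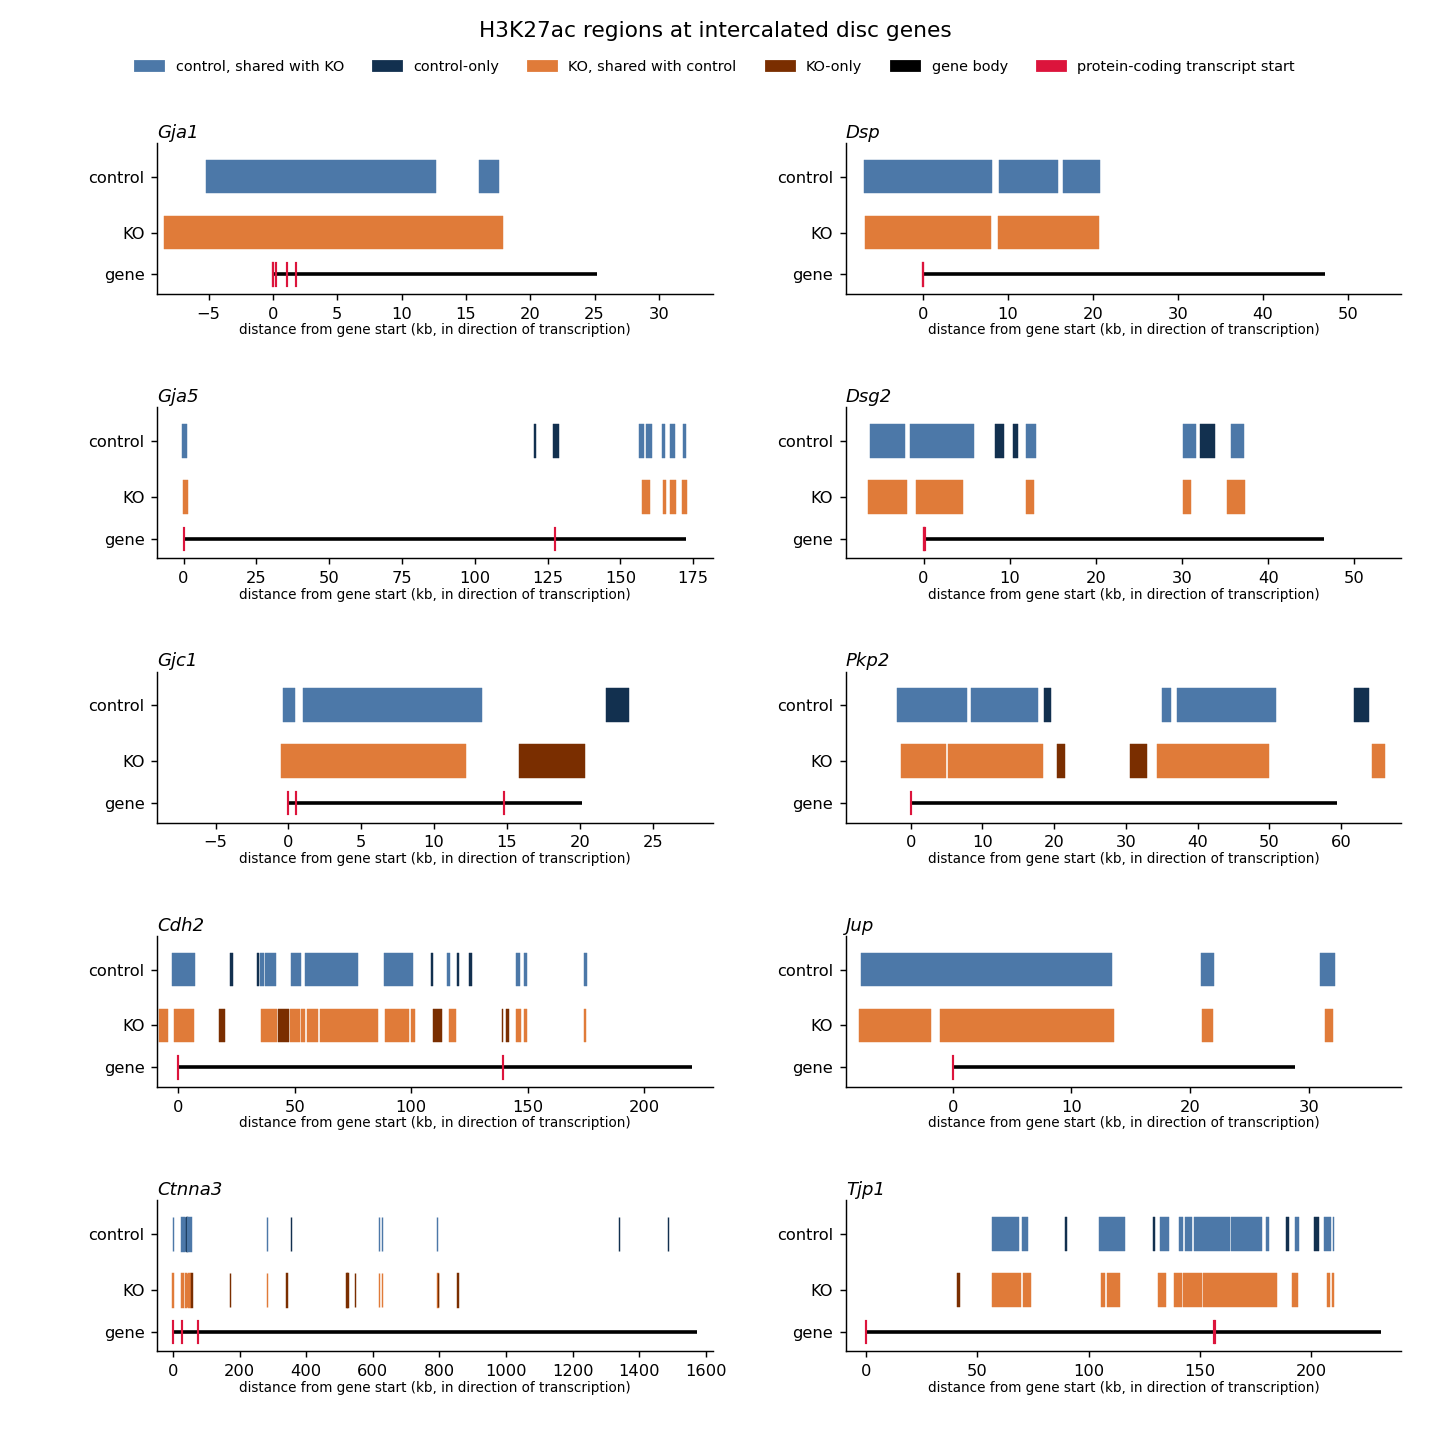
Maps of the regions at each member gene, by distance from the gene start (kb, x axis, in the direction of transcription), with control regions above KO regions and the gene body below as a black line with red ticks at protein-coding transcript starts; dark colors mark regions found in 1 genotype alone. At *Gja1* and *Dsp* a KO region spans the gap between neighboring control regions, at *Gja5* the internal start is covered in control CMs alone, and at *Ctnna3*, where regions are narrow for the scale, they are drawn at a minimum line width.

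*Gja1* (ENSMUSG00000050953, chr10:56377330-56402513, GRCm38, plus strand) encodes the main connexin of working ventricular myocardium. In control CMs it had 2 regions, of 17853 bp (chr10:56372130-56389982) and 1579 bp (chr10:56393316-56394894). A single KO region of 26365 bp (chr10:56368815-56395179) spanned both, with the 3333 bp between them and an upstream extension to position -8515 relative to the gene start. The KO list thus held 1 broader region, with 9 merged peaks against 5 and 2 in the control regions. Whether any single replicate was continuous across the gap cannot be seen in merged lists. This KO region ranked at 159 by width in the KO list, and the widest control region ranked at 360 in its own. Within the window the covered length was 19232 bp in control and 22850 bp in KO CMs (log2 0.25), or 0.33 without the flanks and 0.44 with flanks of 10 kb. All 5 protein-coding start positions, like the printed promoter, were covered in both.

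The picture turned outside the window. A search made after the values were seen counted the regions whose nearest protein-coding start was that of *Gja1*, which included 55 control and 34 KO regions beyond the window, all on the 3′ side, between 37.2 and 547 kb from the gene start. Of these, 25 control regions (45.5%) were control-only and 6 KO regions (17.6%) were KO-only, beside 29.5% and 21.5% over the whole lists, and the covered length was 181065 bp in control and 129930 bp in KO CMs. With them, *Gja1* held 200497 bp in control and 156295 bp in KO CMs, a log2 ratio of -0.36. The gene body and the distal 3′ interval therefore differed in direction, and nothing in the lists ties those distal regions to *Gja1* other than position.

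*Gja5* (ENSMUSG00000057123, chr3:96904693-97077416, plus strand) encodes a connexin known from atrial myocardium, the conduction system and arterial endothelium. Its window held 8 control regions with 12742 bp and 5 KO regions with 9154 bp (log2 -0.48, the 11.5 percentile of genes with a region in both lists). The difference included the internal promoter. A control-only region of 1996 bp with the minimum of 2 merged peaks (chr3:97031734-97033729) lay over the start of the 2 shorter transcripts, 127723 bp into the gene and within intron 2 of the longest one, and the nearest KO region was 28390 bp away. Control regions covered all 300 bp of the printed *Gja5* promoter, and KO regions covered 0 bp. The far upstream start of the gene, where the regions also overlap the neighboring gene *Gpr89*, was covered in both genotypes, by 1715 and 1587 bp. Near the 3′ end, 5 control and 4 KO regions overlapped each other.

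A further control-only region at *Gja5*, of 949 bp (chr3:97024899-97025847, plus strand of GRCm38), lay in the same intron, with its center at -7043 bp from the internal start. It is named because its central 200 bp, shown here as chr3:97025274-97025473, held 2 of the motifs, and it was chosen after its values were seen. Capitals mark, in order, a reverse-strand match to the NKX2-5 motif and a match to AP-1.
Gja5 control-only center: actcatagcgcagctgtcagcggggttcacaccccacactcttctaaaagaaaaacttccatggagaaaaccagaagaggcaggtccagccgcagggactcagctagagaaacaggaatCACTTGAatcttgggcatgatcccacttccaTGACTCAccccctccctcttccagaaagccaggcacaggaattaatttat

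Because *Gja5* is also transcribed outside ventricular CMs, the markers of other cells are given beside it. The endothelial list had regions at 6 of 6 genes in both lists, with 103572 bp in control and 113790 bp in KO CMs, the most at *Tek* (37756 bp) and *Pecam1* (41698 bp), respectively, and none at 0. A start was covered at 6 of these genes in control and 5 in KO CMs, the difference being *Cdh5*, which held 5079 and 1743 bp and was named after its values were seen. The atrial and conduction list had regions at 3 of 6 genes with 13108 bp in control and 4 of 6 with 16868 bp in KO CMs, the most at *Hcn4* (7488 and 8412 bp), with *Myl7* and *Sln* at 0 in both and *Nppa* at 0 in control CMs. The sums hid genes of both directions. Of the endothelial genes, 3 were covered over a greater and 3 over a smaller length in KO CMs, with 13 control-only and 3 KO-only regions, and of the atrial and conduction genes 3 over a greater and 1 over a smaller length. Mural markers had regions at 3 and 4 of 6 genes with 16301 and 13026 bp, the most at *Myh11* (7526 and 7581 bp), with *Rgs5* and *Pdgfrb* at 0 in both and *Kcnj8* at 0 in control CMs. Of the mural genes 2 were covered over a greater and 2 over a smaller length in KO CMs, among them *Acta2*, named after its values were seen (5289 and 1472 bp). Fibroblast markers had regions at 3 and 1 of 6 genes with 4496 and 834 bp, the most at *Col3a1* in control (2936 bp) and *Col1a1* in KO CMs (834 bp). Of these genes, 2 were covered over a smaller length in KO CMs and 1, *Col1a1*, over a greater one (764 bp in control CMs). *Col1a2*, *Dcn* and *Tcf21* were at 0 in both, and *Col3a1* and *Pdgfra* were at 0 in KO CMs. Macrophage markers had regions at 2 and 1 of 6 genes with 1927 and 4128 bp, the most at *Cd68* (1173 and 4128 bp), with *Ptprc*, *Csf1r*, *Adgre1* and *C1qa* at 0 in both and *Mrc1* at 0 in KO CMs. Epicardial and epithelial markers had regions at 1 of 6 genes, *Wt1*, with 12492 and 9531 bp, and the other 5, *Upk3b*, *Msln*, *Epcam*, *Cdh1* and *Krt5*, were at 0 in both. The part of other cell types in the *Gja5* difference was not tested.

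*Gjc1* (ENSMUSG00000034520, chr11:102799579-102819700, minus strand) encodes a connexin of the embryonic heart and of slowly conducting nodal tissue. It held 3 control regions with 14632 bp and 2 KO regions with 17319 bp (log2 0.24). At the gene start, a KO region of 12733 bp (chr11:102807508-102820240) overlapped control regions of 12259 bp (chr11:102806415-102818673) and 803 bp (chr11:102819245-102820047), the same form of joining as at *Gja1*. Farther into the gene, a KO-only region of 4586 bp with 5 merged peaks (chr11:102799316-102803901), with its center in intron 2, was the widest KO-only region at any member. A control-only region of 1570 bp (chr11:102796343-102797912) lay downstream of the gene, 1404 bp from that KO-only region.

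At the adherens junction, *Cdh2* (ENSMUSG00000024304, chr18:16588877-16809246, minus strand), which encodes N-cadherin, the transmembrane adhesion protein of the disc, had the highest ratio of the members in this window. Its 15 control regions covered 64991 bp and its 18 KO regions 83683 bp, a difference of 18692 bp (log2 0.36, the 73.6 percentile of genes with a region in both lists). With flanks of 10 kb *Gja1* was higher, and without flanks *Gjc1* had the same ratio, 0.38. Most of the regions had their centers in introns 1 and 2. The widest regions, 22681 bp in control (chr18:16732146-16754826) and 24921 bp in KO CMs (chr18:16723629-16748549), overlapped within intron 2, and the control region also met 2 other KO regions, of 4913 and 1896 bp. The KO region had 15 merged peaks and the control region 6.

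*Cdh2* had 5 genotype-only regions in each list, and 3 of the KO-only regions were wider than any of the control-only ones. KO-only regions of 4544 bp (chr18:16761893-16766436, 3 merged peaks), 3808 bp (chr18:16696064-16699871) and 2778 bp (chr18:16789153-16791930) lay in introns 2, 2 and 1. The widest control-only regions there were 1466 bp (chr18:16682993-16684458) and 1129 bp (chr18:16785912-16787040), in introns 2 and 1. A KO-only region of 544 bp (chr18:16669700-16670243) covered the start of a shorter transcript, 139177 bp into the gene, which no control region covered. The main start was covered in both lists, by regions of 9530 and 8887 bp. The remaining genotype-only regions were 1 KO-only region of 987 bp and control-only regions of 786, 782 and 568 bp.

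*Ctnna3* (ENSMUSG00000060843, chr10:63430098-65003667, plus strand) encodes alpha-T-catenin, which links cadherin complexes to actin and also binds plakophilin. At 1574 kb it was the longest member, and its regions covered 2.25% of the window in control and 2.44% in KO CMs. The 13 control regions covered 35634 bp and the 17 KO regions 38648 bp (log2 0.12). This direction did not hold in each setting, since the log2 ratio was -0.04 without regions that overlap another gene and -0.20 with regions assigned to the nearest start, while the highest value was 0.14. The starts at the gene start and at 27412 bp were covered in both genotypes, and that at 73939 bp in neither. The widest regions lay in intron 1, where a control region of 12131 bp (chr10:63471428-63483558) faced KO regions of 7080 and 1188 bp.

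*Ctnna3* had 4 control-only and 8 KO-only regions. Control-only regions included 2007 bp in intron 1 (chr10:63468636-63470642), 1329 bp in intron 13 (chr10:64768165-64769493) and 1450 bp in intron 15 (chr10:64915750-64917199), and the latter 2 lay 482426 and 630011 bp from any KO region. KO-only regions included 3334 bp with 3 merged peaks in intron 9 (chr10:64282406-64285739), 1436 bp in intron 1 (chr10:63484451-63485886) and 2422 bp in intron 7 (chr10:63949314-63951735, 3 merged peaks). The last of these and 2 further KO-only regions lay in the body of *Lrrtm3*, a gene nested in *Ctnna3*, so they cannot be assigned to either gene by position. Toward the 3′ end, from intron 9 on, the lists shared no region.

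A KO-only region of 650 bp in intron 5 of *Ctnna3* (chr10:63601154-63601803, plus strand of GRCm38), named after its values were seen, held a match to NKX2-5 and a match to MEF2 in its central 200 bp (chr10:63601379-63601578). It was the only member region found in 1 genotype alone with both. Capitals mark first the reverse-strand NKX2-5 match and then the MEF2 match.
Ctnna3 KO-only center: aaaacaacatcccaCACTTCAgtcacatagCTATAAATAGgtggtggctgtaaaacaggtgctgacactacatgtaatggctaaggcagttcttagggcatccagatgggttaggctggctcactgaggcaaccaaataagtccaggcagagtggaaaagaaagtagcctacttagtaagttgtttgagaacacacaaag

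Among the desmosome genes, *Dsp* (ENSMUSG00000054889, chr13:38151294-38198577, plus strand), which encodes desmoplakin, the link from the desmosome to intermediate filaments, was nearly the same in both genotypes. Its 3 control regions covered 24485 bp and its 2 KO regions 24884 bp (log2 0.02). A region of 15045 bp in control (chr13:38144421-38159465) and 14740 bp in KO CMs (chr13:38144566-38159305), each with 10 merged peaks, lay over the start. Next to it, a KO region of 11872 bp (chr13:38160160-38172031) overlapped control regions of 6927 and 4386 bp, which were 631 bp apart.

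*Dsg2* (ENSMUSG00000044393, chr18:20558074-20604521, plus strand) encodes the desmoglein of CMs, a desmosomal cadherin, and had the lowest ratio of the members in this window. It held 8 control regions with 17740 bp and 5 KO regions with 12360 bp (log2 -0.52, the 10.2 percentile of genes with a region in both lists). This was short of 1.5-fold, but the ratio passed it without the flanks (-0.65) and with regions of at least 1000 bp alone (-0.70). In the other 4 settings it was between -0.46 and -0.52, and *Gja5* was lower. The region over the start was 7435 bp wide in control (chr18:20556516-20563950) and 5431 bp in KO CMs (chr18:20557239-20562669). Control-only regions of 1110 bp (chr18:20566323-20567432) and 628 bp lay in intron 1 and one of 1679 bp (chr18:20590168-20591846) in intron 9. *Dsg2* and *Gja5* were thus alike in having fewer regions and a smaller covered length in KO CMs, with no KO-only region, though the *Dsg2* promoter was covered in both genotypes.

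*Pkp2* (ENSMUSG00000041957, chr16:16213318-16272712, plus strand) encodes plakophilin, which joins desmosomal cadherins to desmoplakin. It had 6 regions in each list, with 37102 bp in control and 38747 bp in KO CMs (log2 0.06), or 53.5% and 55.8% of its window. The outlines of its regions differed more than their sum. KO regions of 13322 bp (chr16:16218512-16231833) and 15608 bp (chr16:16247670-16263277) each overlapped 2 control regions. In the other direction, the control region of 9737 bp over the start (chr16:16211438-16221174) overlapped 2 KO regions, of 6196 and 13322 bp, which were 304 bp apart. Control-only regions were 930 bp wide in intron 4, 78 bp from a KO region, and 2028 bp wide downstream of the gene (chr16:16275174-16277201, 3 merged peaks). KO-only regions were 1122 bp wide in intron 4 and 2405 bp wide in intron 5 (chr16:16243829-16246233).

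*Jup* (ENSMUSG00000001552, chr11:100368958-100397763, minus strand) encodes plakoglobin, which is found in both desmosomes and adherens junctions. Its 3 control regions covered 20676 bp and its 4 KO regions 19515 bp (log2 -0.08), and without the flanks the values were 14488 and 14538 bp (log2 0.00). The lowest ratio, -0.21, was that with regions of at least 1000 bp alone. Here the control list held the single broad region, of 21201 bp with 9 merged peaks (chr11:100384324-100405524), which ranked at 209 by width. In KO CMs the same interval held regions of 14743 bp (chr11:100384136-100398878) and 6106 bp (chr11:100399572-100405677) with a gap of 693 bp upstream of the start. The form at *Jup* was thus the reverse of that at *Gja1*, and no region at *Jup* was found in 1 genotype alone.

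*Tjp1* (ENSMUSG00000030516, chr7:65296165-65527781, minus strand) encodes a zonula occludens scaffold protein that binds connexins at the edge of gap junction plaques. Its 16 control regions covered 77893 bp and its 12 KO regions 78695 bp (log2 0.01). The annotated gene start was uncovered in both lists, and the widest regions lay instead at a pair of internal starts, 156542 and 156766 bp into the gene, where the printed *Tjp1* promoter lies. In KO CMs a region of 33073 bp with 14 merged peaks (chr7:65343110-65376182) covered these starts. It ranked at 72 by width in the KO list and overlapped control regions of 16159, 14160 and 1081 bp. As at *Gja1*, 1 broad KO region thus spanned the gaps between separate control regions. Unlike at *Gja1*, the control region of 16159 bp also met a second KO region, of 8295 bp (chr7:65376841-65385135). The reverse form was present too, as a control region of 11715 bp (chr7:65411431-65423145) overlapped KO regions of 5844 and 1723 bp. Control-only regions of 2210 bp (chr7:65324350-65326559, 3 merged peaks), 1240 bp (chr7:65337886-65339125) and 1077 bp (chr7:65397925-65399001) were intronic, as were a control-only region of 884 bp and the sole KO-only region, of 1236 bp.

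The centers of the member regions were searched for the same motifs. Of the 149 regions of both lists, 41 held at least 1 match in their central 200 bp. The NKX2-5 motif was the most common, in 11 of 77 control regions (14.3%, against 10.8% of all control regions) and 11 of 72 KO regions (15.3% against 10.6%). GATA matches were in 5 control regions (6.49% against 3.16%) and 4 KO regions (5.56% against 3.03%), and MEF2 matches in 2 (2.60% against 1.10%) and 2 (2.78% against 1.05%). AP-1 matches were in 3 control regions (3.90% against 6.30%) and 6 KO regions (8.33% against 6.12%). The center searched depends on the limits of each region, so counts in shared regions do not compare the same bases between lists. An AP-1 match of a KO region at *Gja5*, and one of a control region at *Cdh2*, also lay inside a region of the other list, outside its center. The ERR motif was in 0 control regions (0.657% of all) and 1 KO region, at *Dsg2* (1.39% against 0.677%). The bases of that ERR match also lay within the overlapping control region of 1104 bp, but outside its central 200 bp. The TBX5 motif was in 0 of either (0.787% and 0.723% of all). Among regions found in 1 genotype alone, NKX2-5 matches were in 4 of 21 control-only (19.0% against 11.9%) and 4 of 17 KO-only regions (23.5% against 10.8%), so the count was the same in both directions. These counts are small, and a match describes letters only.

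A wider list of 28 disc genes, which excludes the members, was described in the same way. Regions were present at 25 of them, and the median log2 ratio was 0.21 over the 23 with regions in both lists. The covered length was past 1.5-fold longer at 2 and shorter at 1, beside the 19.8% and 12.6% given for all genes. The 2 were *Ldb3*, a Z-disc protein gene (24975 bp in control and 40860 bp in KO CMs, log2 0.71), and the plakin gene *Ppl* (0 and 805 bp). The 1 shorter was the connexin gene *Gja4* (526 and 0 bp), known from arterial endothelium, and both *Ppl* and *Gja4* had a single narrow region in 1 list. By group, the median log2 ratio of genes with regions in both lists, which leaves out *Ppl* and *Gja4*, was 0.14 for 3 gap junction genes, 0.10 for 7 adherens junction genes, -0.06 for 4 desmosome genes and 0.24 for 9 scaffold and channel genes. Of the 25 genes with a region, 15 had control-only and 14 had KO-only regions, beside 39.2% and 35.2% of all genes. These were 36 of 163 control regions (22.1%, beside 27% in all gene windows) and 33 of 151 KO regions (21.9%, beside 20.7%). The gene start was covered at 20 in control and 21 in KO CMs, beside 68.9% and 73.1%. Differences in both directions occurred within the list.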

How the data were processed

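H3K27ac and IgG CUT&RUN libraries of control and KO CMs were assigned to genotype and antibody by their labels. Per the submitters' processing notes, the tools were Bowtie2 2.4.2, SAMtools and HOMER 4.11.1. The authors aligned reads to GRCm38, removed duplicates, found enriched regions in each replicate against IgG, and deposited 1 merged list per genotype, whose values are chromosome, start, end and a name with a number, read here as that of merged peaks. The other 2 columns hold 1 value in every line and were not used. No signal, count or call per replicate was used, so depth is unknown. Wilson 95% intervals cover counting error only and treat regions as independent, although regions cluster within genes.

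Positions were written counting from 1. Only the autosomes (1 to 19) and X and Y were used; 21 control and 14 KO regions on other sequences were dropped. Covered length is the number of bases of a gene window within regions of a list, and ratios are log2 of KO over control. Genes were taken from GENCODE M21, and sequences and promoters from RefSeq GRCm38.p6. No test was run: with 1 list per genotype, values stand side by side, beside the same over all protein-coding genes with a region.

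The named genes were the 10 members, *Nrip1*, wider-list genes past 1.5-fold (at most 5 per direction), and up to 3 genes per marker list with the longest covered length; genotype-only regions wider than the median of their list's genotype-only regions (1045 bp in control, 1279 bp in KO CMs), or at a member promoter, are given with positions. One planned wider-list gene is not reported here and is left out of that list's counts. Other regions and genes were named after their values were seen. The marker lists were cardiomyocyte, atrial and conduction, fibroblast, endothelial, mural, macrophage, and epicardial and epithelial. Members and lists were chosen with earlier results of these data known. Alternatives changed the overlap, window, assignment, neighboring genes, region width, list size, fold and promoter limits; the 3-peak and 5 kb alternatives were chosen after seeing the data. The interval functions were tested on simulated data. Python 3.11.15, numpy 2.4.6, scipy 1.17.1, pysam 0.24.0, samtools 1.23.1 and matplotlib 3.10.9 were used.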

Additional observations from a re-analysis of the deposited data

How the results depend on the processing

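Of 76 alternative values, 65 lay within 1.5 times the value reported with its sign kept, and 11 did not. Where sharing needed a reciprocal overlap of 50%, 39 control-only and 32 KO-only member regions were counted in place of 21 and 17. Without flanks, and with regions of at least 1000 bp alone, 1 member (*Dsg2*) was past 1.5-fold shorter in KO CMs in place of 0. With regions assigned to the nearest start, there were 131 control regions, 43 of them control-only, covering 522321 bp, and the summed log2 ratio was -0.07 in place of 0.09; the distal regions beyond *Gja1* make up most of this. At 2-fold, 1 wider-list gene (*Ppl*, listed at 0 in control CMs) was longer in place of 2. With genotype-only regions of 3 or more merged peaks, an alternative chosen after seeing the data, 2 control-only and 4 KO-only regions were counted, so that the order of the 2 lists turned. With equal numbers of the widest regions it also turned, to 16 and 18, and the order of all member regions turned to 69 and 72. Beyond what the settings themselves change, the cause was not tested. No paired analysis was possible because each genotype has 1 merged list and no values per replicate, and leaving out each replicate in turn could not be run for the same reason. The lists give neither depth nor signal, so a region missing from a list may lie just under the calling threshold, and a change in height within a shared region is not seen.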
